A study of Mus musculus with 48 samples.

Results

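The Serpina3 genes of the mouse, a cluster on chromosome 12, encode clade A serpins of the acute-phase response, and 6 of them, Serpina3f, Serpina3g, Serpina3i, Serpina3n, Serpina3m and Serpina3c, were followed across both cell types, both treatments and both ages. The probes were all those, control spots aside, that the array files name for one of these genes, which gave 8 of 55681 probes and 6 of 21882 gene names that carry a gene accession. Serpina3f and Serpina3i had 2 probes each and the other genes had 1 each. The genes were chosen by their higher intensity after IL1B than after PBS at P5 in these arrays. The IL1B and PBS groups at P5 are therefore compared as a description with no test. The P5 PBS arrays also serve in the age and cell type tests, whose P5 side is not free of that choice.

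RNA was measured on 48 Agilent arrays of 1 color, 6 in each of 8 groups. Male Swiss mouse pups received IL1B, an inflammatory cytokine, at 10 ng/g, or PBS, by intraperitoneal injections from P1 through P5. Tissue was taken 2 h after the last injection at P5, by the labels, or 5 days later at P10, and the study's methods give a longer interval at P5 and name the line OF1. O4+ cells, which are of the oligodendrocyte lineage, and CD11B+ cells, which include microglia, were taken one after the other with magnetic beads. By the study's text both cell types came from the same animals, a sample pooled several brains, and no source used here ties a replicate number to an animal. The labels name no transgene or deletion, and all groups are male pups of 1 line. PBS arrays serve in the treatment, age and cell type comparisons alike, so these comparisons share samples. Values are log2 normalized intensities, and a difference of 1 is a doubling.

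Arrays within a group correlated at 0.959 or more, and between 52.9% and 65.4% of probes were well above background on an array. Marker genes of the oligodendrocyte lineage and of microglia were highest in the O4+ and the CD11B+ arrays respectively, but microglial markers were also bright in the O4+ arrays. Their mean ran from 13.13 to 13.81 in the O4+ P5 PBS arrays and from 14.55 to 14.94 in the O4+ P5 IL1B arrays. The oligodendrocyte lineage markers were in turn well above background on every CD11B+ array. Their mean there ran from 10.60 to 11.28 in P5 PBS and from 11.79 to 12.14 in P10 PBS. Replicate 6 of CD11B+ P10 PBS stood apart from the other 5 arrays of its group, with a neutrophil and monocyte marker mean of 12.23 against 9.54 to 10.19, and the results that use it are given with and without it. In RNA from sorted populations, fewer cells of a type and less RNA per cell cannot be told apart.

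A serpin presents a loop that its target protease cuts, and the inhibitor then closes around the protease and traps it. The single human gene SERPINA3, alpha-1-antichymotrypsin, corresponds to a whole cluster of copies in the mouse, whose reactive loops have diverged. IL1B, IL6 and related cytokines raise acute-phase genes through NF-kB, STAT3 and C/EBP factors. In the brain, Serpina3n is widely used as a marker of reactive astrocytes and of activated oligodendrocytes and inhibits granzyme B, while Serpina3g, also called Spi2A, acts inside cells on lysosomal cathepsins.

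Because the copies are alike, the probes were compared with each other before their values were read. All lay on chromosome 12 in mm9. The probes were Serpina3f probe 1 (chr12:105458989-105459048), Serpina3f probe 2 (chr12:105492556-105492615), Serpina3g (chr12:105480045-105480104), Serpina3i probe 1 (chr12:105504738-105504797), Serpina3i probe 2 (chr12:105506705-105506764), Serpina3m (chr12:105632110-105632169), Serpina3n (chr12:105651918-105651977) and Serpina3c (chr12:105385352-105385411). Serpina3f probe 2 lay within the stretch of Serpina3h, a transcribed copy of the cluster, and its accessions include one of Serpina3h, so its signal cannot be given to Serpina3f alone. Of 91 probe pairs over 14 Serpina3 probes, 6 aligned with a score of 15 or more, and the closest pairs were Serpina3h with Serpina3i probe 2 (53 of 58 aligned bases identical, 91.4%) and Serpina3b with Serpina3f probe 2 (47 of 54, 87.0%). The probes of Serpina3g and Serpina3n and probe 1 of Serpina3f and of Serpina3i had no such partner among the 14. Probes were compared with probes only and not with the transcripts of the copies. The lack of a partner therefore cannot show that a probe is specific to its gene. Stretches are shown to make this visible. In the paired ones the capitals mark letters that differ from the partner, and the last 3 are the first 30 bases of probes with no partner.
Serpina3f probe 2, against Serpina3b: aggagcTaatgatcaataaacAtatAAct
Serpina3b, against Serpina3f probe 2: aggagcAaatgatcaataaacGtatCCct
Serpina3f probe 2, against Serpina3a probe 2: catcacccaaaTtgaaAGggCaggagcTaa
Serpina3a probe 2, against Serpina3f probe 2: catcacccaaaAtgaaTAggTaggagcAaa
Serpina3h, against Serpina3i probe 2: tctaTgttgtgAaaaaatctattctatgac
Serpina3i probe 2, against Serpina3h: tctaCgttgtgGaaaaatctattctatgac
Serpina3f probe 1: aaggtttaagaagggaacctgcaactgtgg
Serpina3g: tgtctcttgttgaccaactacgtaggactg
Serpina3n: ttggcatgcctggattagatagtgactaac

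At P5, Serpina3g, Serpina3f and Serpina3i were bright after IL1B and dim after PBS in both cell types. Serpina3g in O4+ cells ran from 5.30 through a median of 5.87 to 6.32 after PBS and from 11.74 through 12.07 to 13.67 after IL1B, a mean difference of 6.60 ± 0.34 (SE, n = 6 and 6). In CD11B+ cells it ran from 5.86 through 6.32 to 7.54 after PBS and from 12.91 through 13.44 to 14.21 after IL1B, a difference of 7.003 ± 0.33. Every IL1B array was above every PBS array in both cell types, and the medians differed 74.1-fold in O4+ cells and 139-fold in CD11B+ cells.

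Serpina3f probe 2 had the higher level of the 2 cell types in O4+ cells after IL1B. In O4+ cells it ran from 5.75 through 6.63 to 7.01 after PBS and from 13.01 through 13.47 to 14.46 after IL1B, and in CD11B+ cells from 6.13 through 6.30 to 6.64 and from 11.46 through 12.12 to 12.36. The differences were 7.04 ± 0.28 and 5.67 ± 0.15, or 114-fold and 56.5-fold between medians. The O4+ and CD11B+ IL1B arrays did not overlap at this probe. That difference between the responses was not tested.

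Serpina3f probe 1, which lies in the Serpina3f stretch, was well above background on no O4+ P5 PBS array. It ran there from 2.41 through 3.21 to 3.52, and from 8.33 through 8.67 to 10.01 after IL1B, which is at least 37.6-fold higher against the detection floor of those arrays. With normexp, which adds an offset to dim values, the log2 fold of medians was 2.48. In CD11B+ cells it ran from 3.38 through 3.67 to 5.72 after PBS, where 1 array was well above background, and from 8.28 through 8.84 to 9.55 after IL1B. Both probes of Serpina3f separated IL1B from PBS at P5, but probe 2 alone separated O4+ from CD11B+ cells after IL1B.

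Serpina3i probe 1 ran from 4.47 through 4.91 to 5.16 in O4+ P5 PBS and from 9.38 through 9.80 to 10.79 in O4+ P5 IL1B, a difference of 5.07 ± 0.22. In CD11B+ cells it ran from 3.74 through 4.33 to 4.98 and from 8.89 through 9.47 to 9.79, a difference of 5.14 ± 0.22. Serpina3i probe 2, the one that resembles Serpina3h, was dimmer, from 5.72 through 6.26 to 7.27 in O4+ P5 IL1B, at least 6.41-fold above PBS, and its log2 fold of medians was 0.98 with normexp. In CD11B+ P5 IL1B it ran from 3.14 through 5.65 to 5.87, at least 2.33-fold above PBS.

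Serpina3n did not share this pattern. In O4+ cells at P5 it ran from 7.31 through 7.64 to 7.75 after PBS and from 7.70 through 7.79 to 8.01 after IL1B, a difference of 0.26 ± 0.09. In CD11B+ cells it ran from 3.46 through 4.53 to 6.01 and from 2.82 through 4.86 to 5.17, and the groups overlapped (difference 0.04 ± 0.48). The highest PBS value was replicate 5, whose astrocyte marker mean of 10.44 was the highest of its group. The lowest IL1B value was replicate 3. Within the 1 scan day that held both treatments, which left out these arrays and IL1B replicate 1, the difference was 0.71. Within the 1 shared slide, with 1 PBS array, the difference was 0.29. Serpina3m was near background, from 2.47 through 3.45 to 4.09 in O4+ P5 PBS and from 3.53 through 4.18 to 5.30 in O4+ P5 IL1B. Serpina3c was well above background on no array.

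Of the 8 probes, 5 were higher after IL1B with no overlap between the groups in O4+ cells at P5, and 5 in CD11B+ cells, where 4.62% and 5.87% of all probes did the same. These counts hold the values by which the genes were picked, and nothing is read from them. The median difference over the 8 probes was 4.55 in O4+ cells and 3.95 in CD11B+ cells, and over all probes it was -0.04 and -0.02. Within the slides that held both treatments at P5, Serpina3g was 6.28 and 6.53 higher in O4+ cells on the 2 shared slides and 7.29 higher in CD11B+ cells on the 1 shared slide. In that order these slides held 1 IL1B and 4 PBS arrays, 1 and 2, and 4 and 1, so each value rests on 1 array on a side. Another slide held 4 O4+ IL1B and 4 CD11B+ PBS arrays and no P5 partner for either, so slide and treatment were largely tied at P5.

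**Figure D1:**
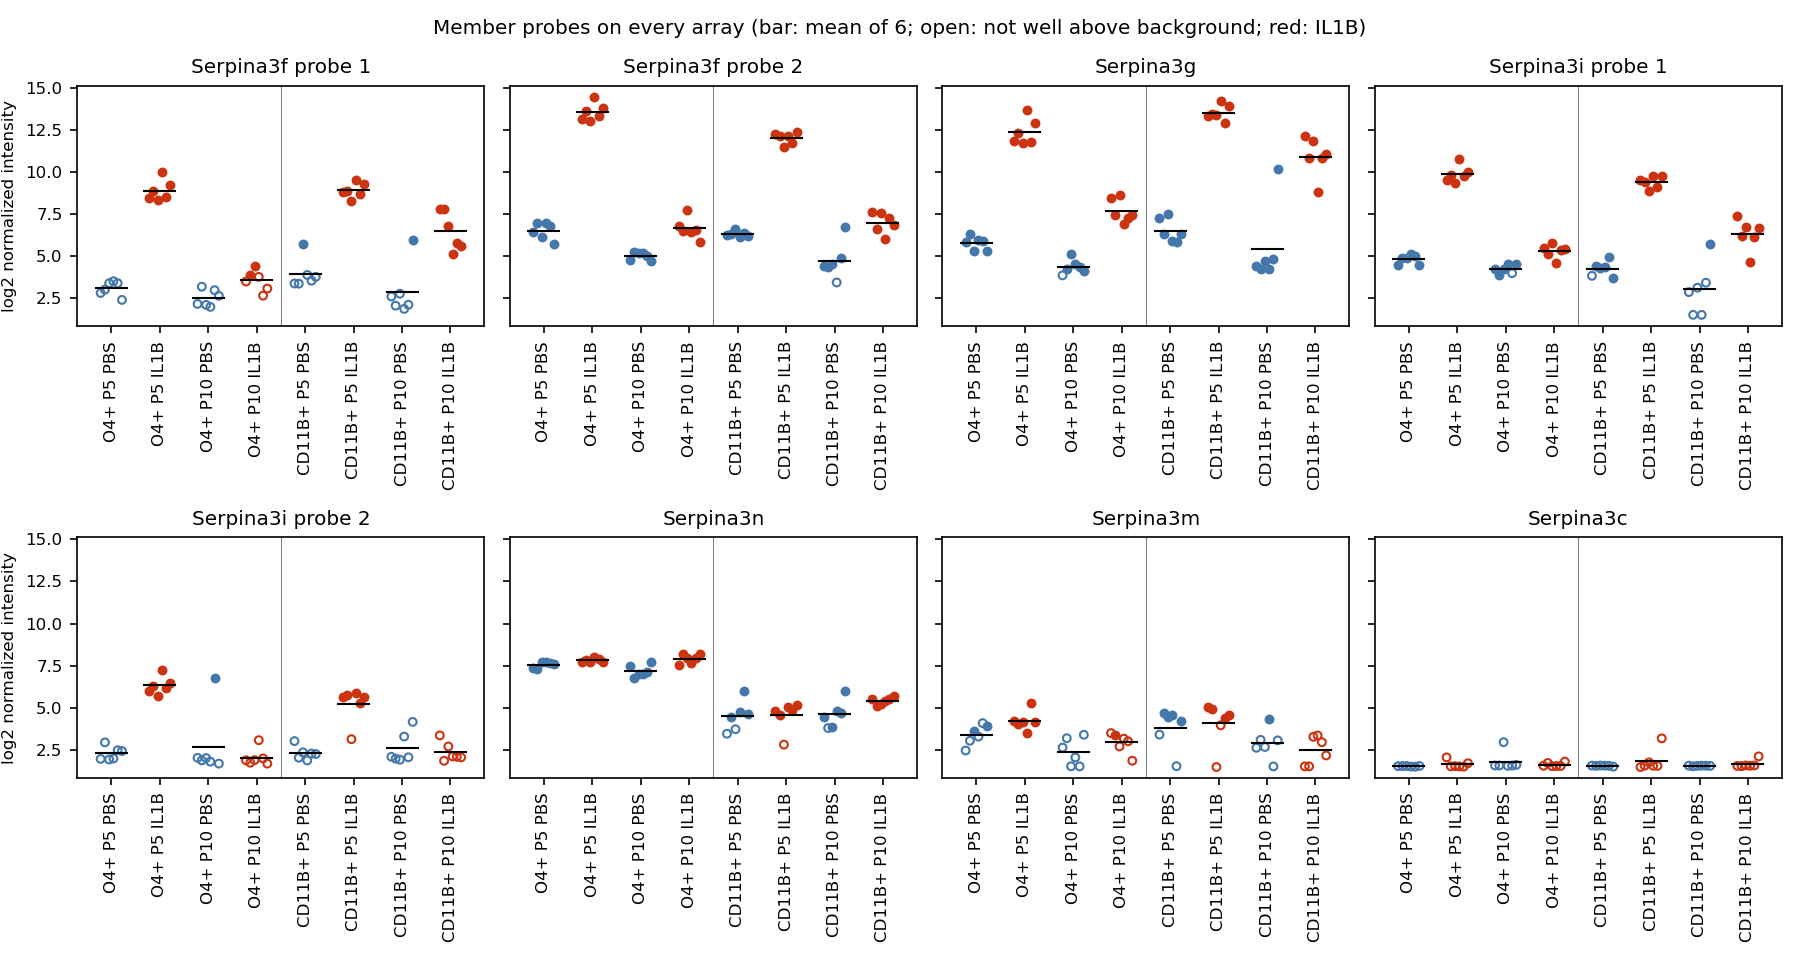
Log2 normalized intensity (y axis) of the Serpina3 probes on each array (points, open where not well above background, with a bar at the mean of 6) in the 8 groups of cell type, age and treatment (x axis). Serpina3g after IL1B at P5 lay between 11.74 and 14.21 in both cell types, and its 1 high CD11B+ P10 PBS array is at 10.17.

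Promoter sequences were compared for the members that moved together and for Serpina3n, which did not. RefSeq (GRCm38.p6) lists a promoter for 5 of the 6 genes, and the 250 bases before the gene start are printed 5′ to 3′ on the gene's strand, which is the plus strand for these 4. Serpina3f has 2 listed starts, and the first listed was used. Capitals mark matches to 3 motifs searched on both strands, TTCNNNGAA (STAT), GGG then any 2 letters then TTTCC (NF-kB) and TTGCNNAA (C/EBP), of which no matches overlapped.
Serpina3f (chr12:104214294-104214543): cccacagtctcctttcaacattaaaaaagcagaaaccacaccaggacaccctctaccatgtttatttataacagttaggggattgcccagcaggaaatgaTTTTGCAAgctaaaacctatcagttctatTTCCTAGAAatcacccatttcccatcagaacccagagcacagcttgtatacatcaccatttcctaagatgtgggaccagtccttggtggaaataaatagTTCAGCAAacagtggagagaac
Serpina3g (chr12:104235897-104236146): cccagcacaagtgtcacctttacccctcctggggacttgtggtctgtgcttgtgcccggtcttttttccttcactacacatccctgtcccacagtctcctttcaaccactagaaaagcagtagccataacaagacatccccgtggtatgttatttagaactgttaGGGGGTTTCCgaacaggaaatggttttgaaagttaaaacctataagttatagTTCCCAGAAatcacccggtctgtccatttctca
Serpina3i (chr12:104262872-104263121): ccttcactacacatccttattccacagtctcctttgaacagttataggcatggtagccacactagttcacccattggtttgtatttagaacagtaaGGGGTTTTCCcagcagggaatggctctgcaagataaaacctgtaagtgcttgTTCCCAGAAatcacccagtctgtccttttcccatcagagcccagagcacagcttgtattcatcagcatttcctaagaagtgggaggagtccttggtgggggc
Serpina3n (chr12:104406458-104406707): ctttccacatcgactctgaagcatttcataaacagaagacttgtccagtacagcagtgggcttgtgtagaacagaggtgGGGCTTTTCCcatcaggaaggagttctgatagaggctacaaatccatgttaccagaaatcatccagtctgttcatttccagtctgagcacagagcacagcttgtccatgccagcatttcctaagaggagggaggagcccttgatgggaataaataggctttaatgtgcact

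The STAT motif stood in Serpina3f (TTCCTAGAA, from position -121 relative to the gene start), in Serpina3g (TTCCCAGAA, from -33) and in Serpina3i (TTCCCAGAA, from -102), and its letters were not in the windows of Serpina3n, Serpina3c or Serpina3b. It was in 7.02% of 32851 promoters of the same length. The NF-kB motif was in Serpina3g, Serpina3i and Serpina3n and in 1.41% of all promoters. The C/EBP motif was in Serpina3f and Serpina3b and in 9.56%, and a motif of interferon regulatory factors, GAAA then any 2 letters then GAAA, was in none of these and in 2.98%. Over the parts of the listed windows that aligned, the promoters of Serpina3g and Serpina3i were 80.5% identical, those of Serpina3f and Serpina3g 79.0% (169 of 214 aligned positions), those of Serpina3n and Serpina3c 92.6%, and those of Serpina3f and Serpina3n 65.6%. These matches describe the letters and were not tied to binding.

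Whether the members still differed 5 days after the last injection was tested at P10 with limma, 6 arrays against 6, with Benjamini-Hochberg adjustment over all probes. A call needed an adjusted p below 0.05 together with medians over 1.5-fold apart. In O4+ cells Serpina3g rose, from a PBS range of 3.87 through 4.30 to 5.15 to an IL1B range of 6.89 through 7.47 to 8.64, by 3.32 ± 0.32 (limma adjusted p = 0.00076, 8.97-fold). Serpina3f probe 2 rose from 4.71 through 5.12 to 5.23 to 5.83 through 6.55 to 7.73, by 1.63 ± 0.26 (limma adjusted p = 0.0038). Serpina3i probe 1 rose from 3.87 through 4.23 to 4.53 to 4.61 through 5.42 to 5.80, by 1.09 ± 0.19 (limma adjusted p = 0.0055). In these 3 probes every IL1B array was above every PBS array, as in 2.87% of all probes.

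Serpina3n rose in O4+ cells at P10, from 6.76 through 7.08 to 7.71 to 7.53 through 7.96 to 8.19, by 0.73 ± 0.17 (limma adjusted p = 0.0192, 1.84-fold), and its groups overlapped. With all 8 groups in 1 fit the calls of Serpina3n (limma adjusted p = 0.137) and Serpina3i probe 1 (adjusted p = 0.0699) ended, and the latter also ended with normexp, at a difference of 0.36. Serpina3f probe 1 was 1.04 ± 0.31 higher but missed the threshold (limma adjusted p = 0.0524), with no PBS array and 2 IL1B arrays well above background. In all 4 of the 8 probes were called higher and none lower, against 2.62% of all probes called higher. Serpina3g was 3.53 higher within the slide that held 2 IL1B and 5 PBS arrays and 3.32 higher within the slide that held 1 of each.

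In CD11B+ cells at P10 the same 3 genes rose, and 1 PBS array lay among the IL1B arrays. Serpina3g ran from 4.25 through 4.58 to 10.17 after PBS and from 8.80 through 10.95 to 12.14 after IL1B, a rise of 5.47 ± 1.01 (limma adjusted p = 0.0188). The highest PBS value was replicate 6, and the other 5 were at 4.84 or below. Serpina3f probe 1 rose by 3.58 ± 0.75 (limma adjusted p = 0.0252), from 1.88 through 2.37 to 5.98 to 5.11 through 6.30 to 7.82. Serpina3i probe 1 rose by 3.26 ± 0.69 (limma adjusted p = 0.0264), from 1.53 through 3.01 to 5.72 to 4.67 through 6.45 to 7.37. At both of these probes replicate 6 was the 1 PBS array well above background, so the sizes rest largely on signal below background. Over the alternatives tried, the differences went as low as 1.06 for Serpina3f probe 1 and 1.03 for Serpina3i probe 1.

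Serpina3f probe 2 rose by 2.28 ± 0.49 (limma adjusted p = 0.0270), from 3.45 through 4.48 to 6.75 to 6.03 through 7.08 to 7.65, and Serpina3n was 0.80 ± 0.33 higher with an adjusted p of 0.165 by limma. Over the alternatives tried, the Serpina3f probe 2 difference went as low as 1.06. With all arrays 4 of the 8 probes were called higher, against 1.01% of all probes, and none was free of overlap, against 2.03%. Without replicate 6 of PBS 5 were called, all 5 without overlap, against 2.46% of all probes called higher and 5.07% higher without overlap. Serpina3g was then 6.42 ± 0.51 higher (limma adjusted p = 0.000189, 93.0-fold) and Serpina3n 1.08 ± 0.20 (limma adjusted p = 0.00847, 1.99-fold).

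Slide and treatment were tied in these CD11B+ arrays: 1 slide held 5 IL1B arrays with PBS replicates 5 and 6, another the other 4 PBS arrays, and the last IL1B array had a slide with no PBS. Within the shared slide Serpina3g was 3.39 higher, Serpina3f probe 1 2.62, Serpina3i probe 1 1.64, Serpina3f probe 2 1.22, and Serpina3n differed by -0.02. With slide as a block none of the probes was called (Serpina3g limma adjusted p = 0.477). With the block and without replicate 6, Serpina3g alone was called, at 6.05 ± 1.03 (limma adjusted p = 0.0278).

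**Figure D2:**
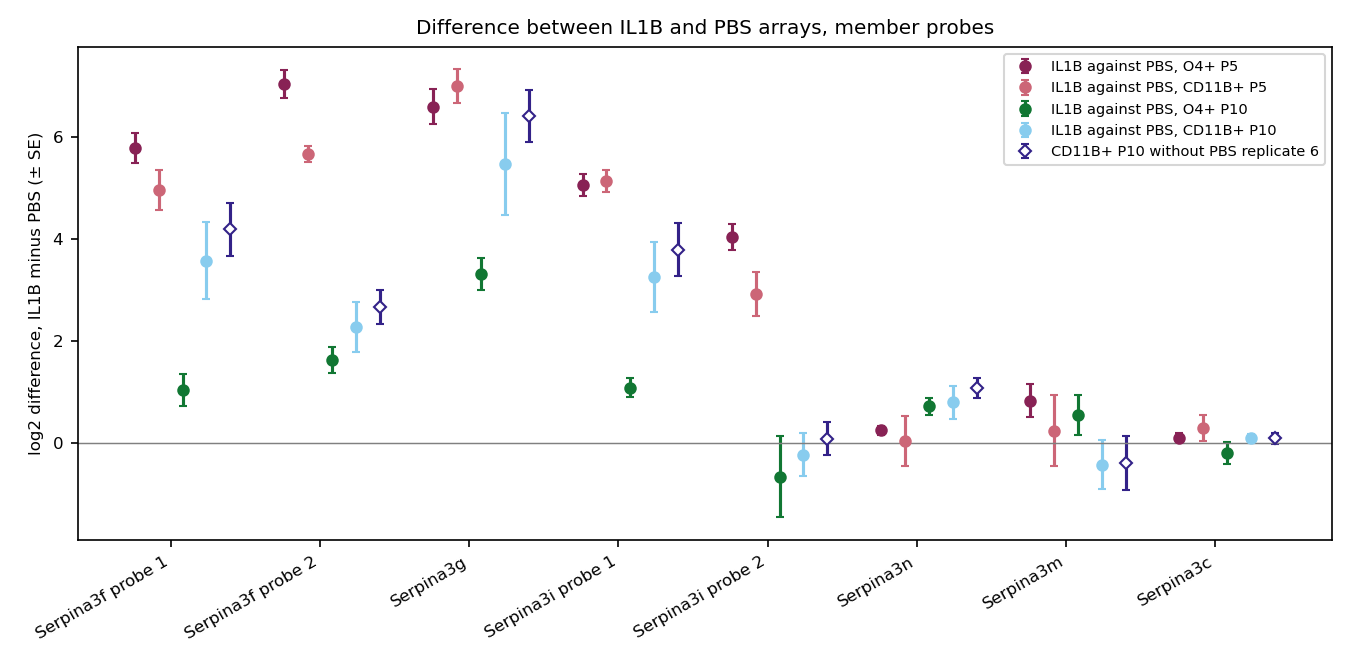
Difference between IL1B and PBS (log2, y axis, with its SE) for each Serpina3 probe (x axis) in O4+ and CD11B+ cells at P5 and P10. Serpina3g stood 6.60 and 7.003 above PBS at P5 and 3.32 and 5.47 at P10, while Serpina3n stood 0.26 and 0.04 above at P5 and 0.73 and 0.80 at P10.

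Whether the 2 cell types differed in the response at P10 was tested as an interaction. Serpina3f probe 1 had a response in O4+ minus that in CD11B+ cells of -2.54 on the log2 scale (limma adjusted p = 0.064), Serpina3i probe 1 of -2.17 (adjusted p = 0.075) and Serpina3g of -2.16 (adjusted p = 0.26), and none of the 8 probes passed, where 7.56% of all probes did. Without replicate 6 of CD11B+ P10 PBS, 3 passed, all with the greater response in CD11B+ cells, where 4.36% of all probes did so. These were Serpina3f probe 1 (-3.15 ± 0.60, limma adjusted p = 0.00246), Serpina3g (-3.10 ± 0.60, adjusted p = 0.00266) and Serpina3i probe 1 (-2.71 ± 0.55, adjusted p = 0.00343). Serpina3f probe 1 and Serpina3i probe 1 were then well above background on no CD11B+ P10 PBS array. Serpina3f probe 1 was also so on no O4+ P10 PBS array. The sizes at these probes therefore rest on signal below background. Serpina3f probe 2 and Serpina3n did not pass with or without replicate 6. With slide as a block and all arrays Serpina3g had a difference of -0.42 (limma adjusted p = 0.915), and within shared slides it was 3.39 higher after IL1B in CD11B+ cells and 3.53 and 3.32 higher in O4+ cells. The PBS arrays behind the 3.39 were replicates 5 and 6, and replicate 6 is the array that stood apart. Without it and with slide as a block, which leaves PBS replicate 5 alone on that slide, Serpina3g was 6.05 higher in CD11B+ cells. With the replicate number as a block Serpina3i probe 1 passed (limma adjusted p = 0.0317).

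Across the 8 groups the order of levels differed by gene. Serpina3g was highest in CD11B+ P5 IL1B, then O4+ P5 IL1B, then CD11B+ P10 IL1B, whose ranges overlapped from one to the next. By median, O4+ P10 IL1B came next, with no overlap with CD11B+ P10 IL1B. The 4 PBS groups had lower medians, but CD11B+ P5 PBS reached 7.54 and CD11B+ P10 PBS reached 10.17 in replicate 6, so both overlapped O4+ P10 IL1B. Serpina3f probe 2 was highest in O4+ P5 IL1B, then CD11B+ P5 IL1B, then CD11B+ P10 IL1B, with no overlap at either step. Serpina3n was higher in all 4 O4+ groups than in the 4 CD11B+ groups, with no overlap between O4+ P10 PBS and CD11B+ P10 IL1B, and the O4+ groups overlapped each in turn, as did the CD11B+ groups.

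**Figure D3:**
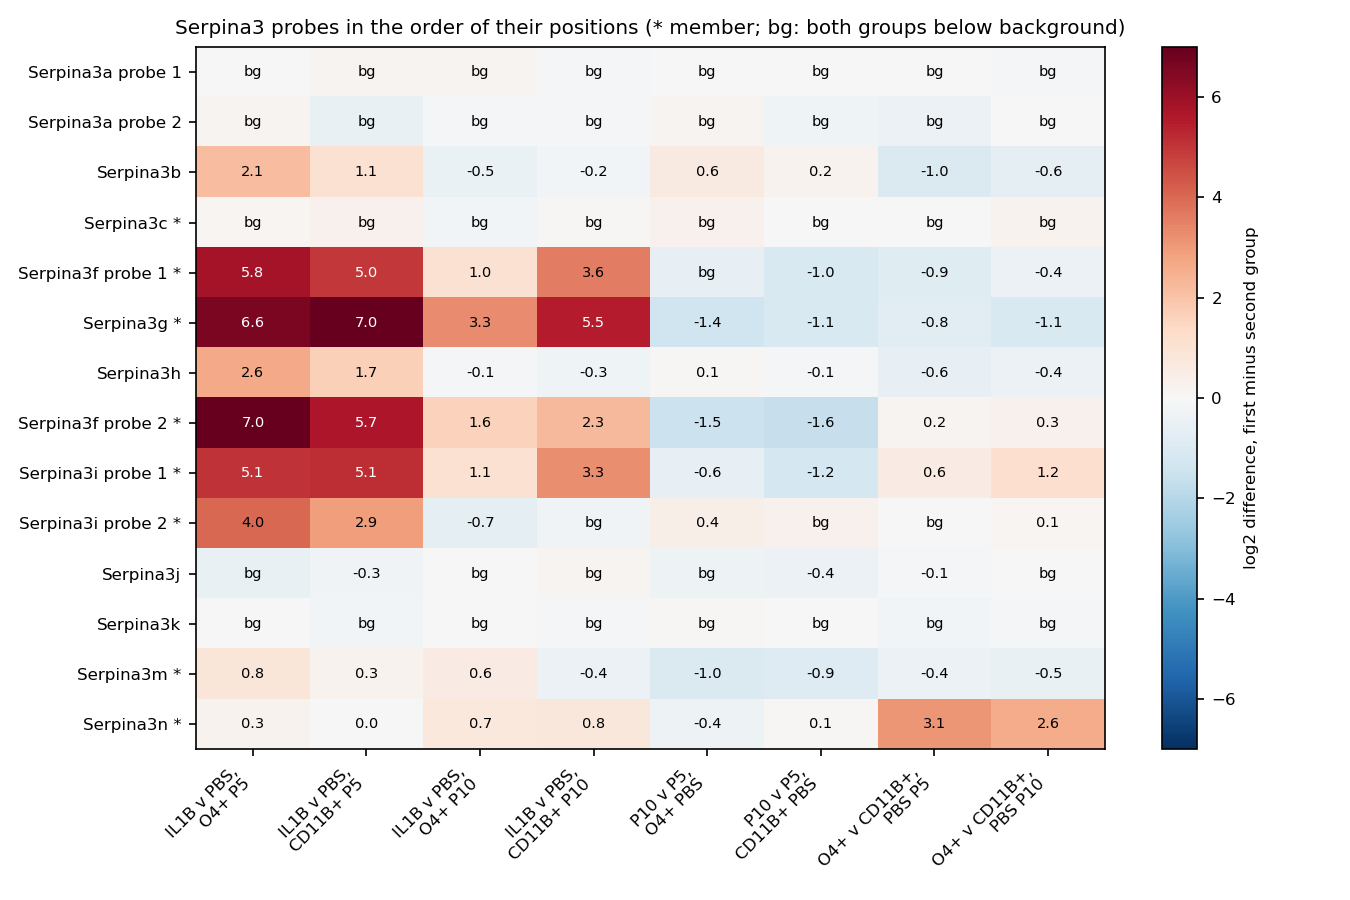
Log2 difference (color scale) of each Serpina3 probe in each comparison, first minus second group, with the probes in the order of their positions on chromosome 12, members starred, and cells marked where both groups were below background. Serpina3g was 6.60 and 7.003 higher after IL1B at P5 in O4+ and CD11B+ cells, and Serpina3n was 0.26 and 0.04 higher.

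Without IL1B, Serpina3g, Serpina3i probe 1 and Serpina3f probe 2 were called lower in O4+ cells at P10 than at P5, and Serpina3f probe 1 was below background at both ages. Serpina3f probe 2 fell by 1.497 ± 0.21 (limma adjusted p = 0.00016), Serpina3g by 1.39 ± 0.23 (adjusted p = 0.00054) and Serpina3i probe 1 by 0.59 ± 0.15 (adjusted p = 0.0097). In all 3 of 8 were called lower and none higher, against 9.16% of all probes, and 2 of the 3 had no overlap, against 11.4%. Serpina3n was 0.38 lower at P10 on average with an adjusted p of 0.079 by limma. The Serpina3g call ended with all groups in 1 fit (limma adjusted p = 0.073) and, at a difference of -0.49, with normexp background correction. The Serpina3i probe 1 call ended in the same settings and with slide or scan as a random block (limma adjusted p = 0.122). In the same comparison 7 of 8 microglial markers fell (median -1.30) and 3 of 6 endothelial markers fell (median -0.86), and their part in the Serpina3 values was not tested. In CD11B+ PBS cells Serpina3f probe 2 fell by 1.60 ± 0.43 (limma adjusted p = 0.0210) and was the 1 called member, against 3.47% of all probes called lower. Without replicate 6 of P10, 4 were called lower, against 3.95%, all without overlap, against 7.37%, and Serpina3g fell by 2.03 (limma adjusted p = 0.00111). These 4 include Serpina3f probe 1 and Serpina3i probe 1, which were then well above background on no P10 array. Serpina3f probe 1 was so on 1 P5 array, so its call and its lack of overlap rest on signal below background. The 2 ages shared no slide and no scan day, so age and batch cannot be told apart in either cell type. The P5 PBS values are also among those by which the genes were picked, so the p-values between ages are not free of that choice.

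Between the cell types after PBS, Serpina3n was higher in O4+ cells, by 3.06 ± 0.35 at P5 (8.62-fold between medians) and by 2.58 ± 0.34 at P10 (5.58-fold), with no overlap at either age. Within the 1 slide that held both cell types at P5 the difference was 3.04, and at P10 no slide held both. It was the 1 member of 8 called higher at P5, where 19.8% of all probes were, and at P10, where 22.2% were, and 20.6% and 21.8% of all probes were higher without overlap. Serpina3g was 0.75 lower in O4+ cells at P5 (limma adjusted p = 0.062) and Serpina3f probe 2 differed by 0.20 (adjusted p = 0.46), neither of which was called. Serpina3i probe 1 was 0.55 higher in O4+ cells at P5 (limma adjusted p = 0.0394) but its medians differed 1.49-fold, under the fold asked for. The P5 PBS values are also among those by which the genes were picked, so these P5 p-values are not free of that choice. Without replicate 6 of CD11B+ P10 PBS, Serpina3f probe 2 and Serpina3i probe 1 were called higher in O4+ cells at P10 as well, by 0.70 (limma adjusted p = 0.0222) and 1.73 (adjusted p = 0.00181), where 22.1% of all probes were. Serpina3i probe 1 was then well above background on no CD11B+ P10 PBS array, so its 1.73 rests on signal below background.

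**Figure D4:**
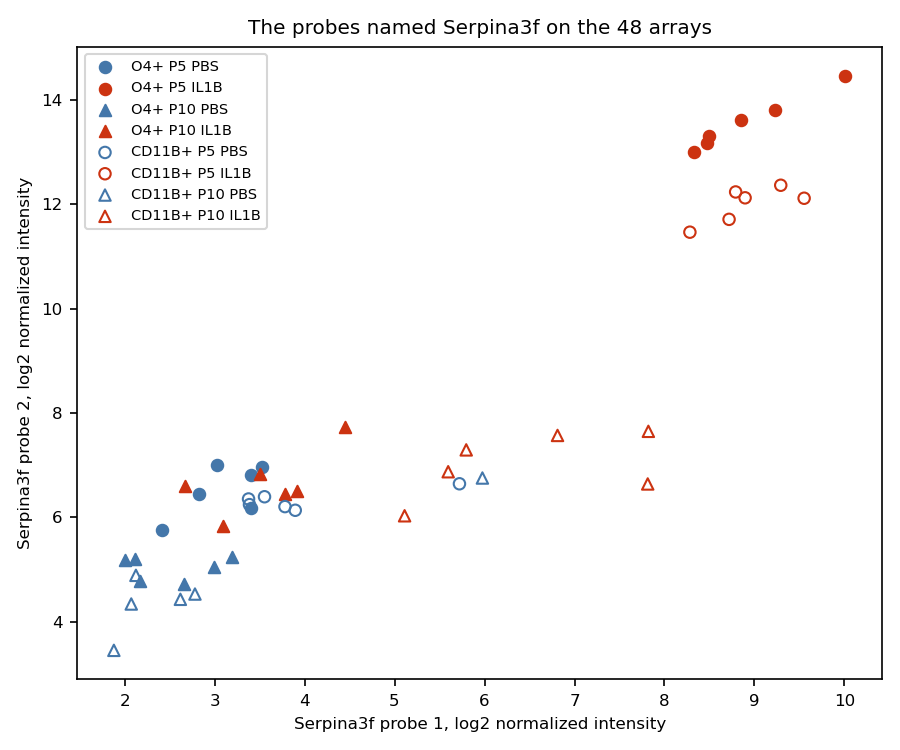
Log2 normalized intensity of Serpina3f probe 1 (x axis) against Serpina3f probe 2 (y axis), 1 point for each of the 48 arrays, by group. The O4+ P5 IL1B arrays lie above the CD11B+ P5 IL1B arrays on probe 2, from 13.01 up against 12.36 at most, and among them on probe 1.

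The 2 probes of Serpina3f correlated at r = 0.914 over the 48 arrays, probe 1 with Serpina3g at 0.960 and probe 2 with Serpina3i probe 1 at 0.964. Serpina3i probes 1 and 2 correlated at 0.771. All these arrays share the large step between treatments at P5, and the values are descriptions.

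The other copies in the cluster were measured beside the members. Serpina3b rose at P5 by 2.13 ± 0.22 in O4+ cells (limma adjusted p = 6.01e-05) and by 1.08 ± 0.13 in CD11B+ cells (adjusted p = 9.22e-05). Serpina3h rose by 2.63 ± 0.16 in O4+ cells (limma adjusted p = 1.85e-06) and by 1.66 ± 0.24 in CD11B+ cells (adjusted p = 0.00043). Neither was called at P10 in either cell type. Both share sequence with a member's probe, as printed above, and the part of that in their values was not tested. The list of copies was also chosen with earlier results of these data known, so their P5 p-values are a description. Serpina3a, on 2 probes, and Serpina3k were well above background on no array, and Serpina3j on 1.

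Genes of wider lists were compared at P5 as well. The lists, like the members, were chosen with earlier results of these data known, so their P5 p-values are given as a description. At P5, 3.49% of all probes were called higher and 1.52% lower in O4+ cells, and 3.98% and 5.01% in CD11B+ cells. At P10, 1.51% were called lower in O4+ cells and 0.986% in CD11B+ cells, and 2.2% there without replicate 6 of PBS. Of 12 other clade A serpins on the array, which include the alpha-1-antitrypsin genes, 4 were called lower and none higher in O4+ cells at P5. These were Serpina1e (-1.42 ± 0.21, limma adjusted p = 0.00089), Serpina1c (-1.37 ± 0.23, adjusted p = 0.0019), Serpina1d (-1.36 ± 0.19, adjusted p = 0.00062) and Serpina1a (-1.29 ± 0.23, adjusted p = 0.0026). These copies are also near identical, so their values are not independent. In CD11B+ cells at P5, 3 were called lower and 1, Serpina10, an inhibitor of coagulation factor X, was called higher by 1.29 ± 0.22 (limma adjusted p = 0.0012). At P10, 1 was called higher in O4+ cells, Serpina1c, by 0.66, and none in CD11B+ cells.

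Of 19 serpins of other clades, 4 rose and none fell at P5 in each cell type. Serpinb9, an intracellular inhibitor of granzyme B, rose by 1.46 ± 0.22 in O4+ cells (limma adjusted p = 0.00079). In CD11B+ cells Serpinb1a, an inhibitor of neutrophil proteases, rose by 3.62 ± 0.17 (limma adjusted p = 1.64e-07) and Serpinb2 by 2.33 ± 0.43 (adjusted p = 0.0022). At P10 1 rose in O4+ cells, Serpine2 (0.73 ± 0.09, limma adjusted p = 0.0016), and 1 fell in CD11B+ cells, Serpinf1 (-0.62 ± 0.10, adjusted p = 0.016). Without replicate 6 of CD11B+ P10 PBS, 5 rose and 1 fell there.

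Of 24 genes of other acute-phase proteins, 9 rose and none fell in O4+ cells at P5, with a median difference of 0.30, and 12 rose and none fell in CD11B+ cells, with a median of 0.89. In O4+ cells Lcn2, an iron-siderophore binder, rose by 6.91 ± 0.24 (limma adjusted p = 6.74e-08), Saa3, a serum amyloid A, by 4.70 ± 0.36 (adjusted p = 8.39e-06) and Hp, haptoglobin, by 3.14 ± 0.55 (adjusted p = 0.0022). In CD11B+ cells Saa3 rose by 5.96 ± 0.30 (limma adjusted p = 2.47e-07), Lrg1, a leucine-rich glycoprotein, by 5.78 ± 0.32 (adjusted p = 4.37e-07) and Orm1, orosomucoid, by 5.14 ± 0.23 (adjusted p = 9.08e-08).

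At P10 in O4+ cells 1 of the 24 rose, Cfb, complement factor B (2.14 ± 0.25, limma adjusted p = 0.0013), and 1 fell, Itih3 (-0.81 ± 0.10, adjusted p = 0.0014). In CD11B+ cells 3 rose at P10, which were Saa3 (2.92 ± 0.74, limma adjusted p = 0.043), Cfb (1.59 ± 0.34, adjusted p = 0.028) and C3 (1.28 ± 0.30, adjusted p = 0.033). Without replicate 6 of PBS 9 rose there. The list median at P10 was -0.02 in O4+ and 0.06 in CD11B+ cells, and over all probes it was -0.02 and 0.00.

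Of 20 regulators of the acute-phase response, 8 rose in O4+ cells at P5, among them Cebpb (2.37 ± 0.12, limma adjusted p = 5.95e-07), a C/EBP factor, Socs3 (2.31 ± 0.13, adjusted p = 1.28e-06), the feedback inhibitor of STAT3 signalling, and the cytokine Osm (2.02 ± 0.14, adjusted p = 5.72e-06). In CD11B+ cells 9 rose and 2 fell, with Socs3 1.56 ± 0.08 higher (limma adjusted p = 3.11e-07). At P10 5 rose in O4+ cells, among them Osm (1.26 ± 0.19, limma adjusted p = 0.0031) and Cebpb (1.04 ± 0.23, adjusted p = 0.015). In CD11B+ cells Osm alone rose (0.74 ± 0.10, limma adjusted p = 0.015), and without replicate 6 of PBS 2 rose and 1 fell.

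Of 15 proteases that serpins of these kinds inhibit, 3 rose in O4+ cells at P5, among them Gzma, granzyme A (2.22 ± 0.33, limma adjusted p = 0.00078), and Ctss, cathepsin S (2.07 ± 0.11, adjusted p = 1.08e-06). In CD11B+ cells 8 rose, among them Gzmb, granzyme B (3.98 ± 0.32, limma adjusted p = 5.86e-06), and Ctsg, cathepsin G (3.499 ± 0.36, adjusted p = 3.35e-05). At P10 3 rose and 2 fell in O4+ cells, with Gzma 2.13 ± 0.45 higher (limma adjusted p = 0.012). At P10 in CD11B+ cells Gzma (4.33 ± 0.88, limma adjusted p = 0.024) and Gzmb (3.11 ± 0.63, adjusted p = 0.023) rose, and without replicate 6 of PBS 5 did.

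Lists that describe the cells in which Serpina3n is used as a marker moved as follows. Of 12 pan-reactive astrocyte genes, 6 rose in O4+ cells at P5 and 2 at P10, and in CD11B+ cells 6 rose and 1 fell at P5 and none rose and 1 fell at P10, where 6 rose and 1 fell without replicate 6 of PBS. Of 7 activated oligodendrocyte genes, 3 rose in O4+ cells at P5, and at P10 4 rose and 1 fell. Complement C4b, one of these, rose by 2.05 ± 0.22 at P5 (limma adjusted p = 9.82e-05) and by 1.42 ± 0.16 at P10 (adjusted p = 0.0012) in O4+ cells. B2m, the light chain of class I MHC, rose by 1.63 ± 0.17 there at P10 (limma adjusted p = 0.00086).

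Markers of other cells did not all move alike. All 8 neutrophil and monocyte markers rose at P5 in both cell types, with a median of 4.92 in O4+ and 4.42 in CD11B+ cells, and 5 rose at P10 in O4+ cells. Their mean ran in O4+ cells from 3.09 to 4.04 in P5 PBS, from 5.76 to 9.77 in P5 IL1B, from 2.78 to 4.30 in P10 PBS and from 4.34 to 5.79 in P10 IL1B, and Ngp, Ltf, Retnlg and Mmp8 were well above background on no O4+ PBS array. In CD11B+ cells it ran from 9.32 to 10.67, from 13.69 to 14.54, from 9.54 to 12.23 and from 10.73 to 11.70 in the same order. None of the 8 was called in CD11B+ cells at P10 with all arrays, and all 8 rose without replicate 6 of PBS.

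Serpina3g correlated with that mean at r = 0.929 over the 24 O4+ arrays and 0.899 over the 24 CD11B+ arrays, Serpina3f probe 2 at 0.900 and 0.943, and Serpina3n at 0.509 and 0.113. Those arrays include the P5 step between treatments by which the genes were picked, and the markers stepped there too. The r values are therefore descriptions, and nothing is read from them. Of 8 microglial markers 7 rose in O4+ cells at P5 (median 1.11) and 4 at P10 (median 0.56). In CD11B+ cells at P5 none of these 8 rose and 1 fell. Of 6 astrocyte markers none rose in O4+ cells at P5 and 3 at P10 (median 0.58), the age at which Serpina3n was called. In CD11B+ cells at P10, 1 rose with all arrays (median 0.53) and 3 without replicate 6 of PBS (median 0.74). The part of these cells in the Serpina3 values was not tested. Of the endothelial markers, 4 fell at P5 in each cell type and none was called at P10. Of 5 neuron markers none was called at P5 in either cell type, and at P10 with all arrays 1 fell in CD11B+ cells. Of 5 hepatocyte markers, Apoa1 was well above background on no array and Alb on no O4+ array, and 3 were well above background on all 6 arrays of every O4+ group. The mean of the 5 ran from 5.84 to 7.38 over all groups, and 2 fell in O4+ and 3 in CD11B+ cells at P5. The 2 that fell in O4+ cells were Serpina1a and Serpina1c, already counted above among the clade A serpins.

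**Figure D5:**
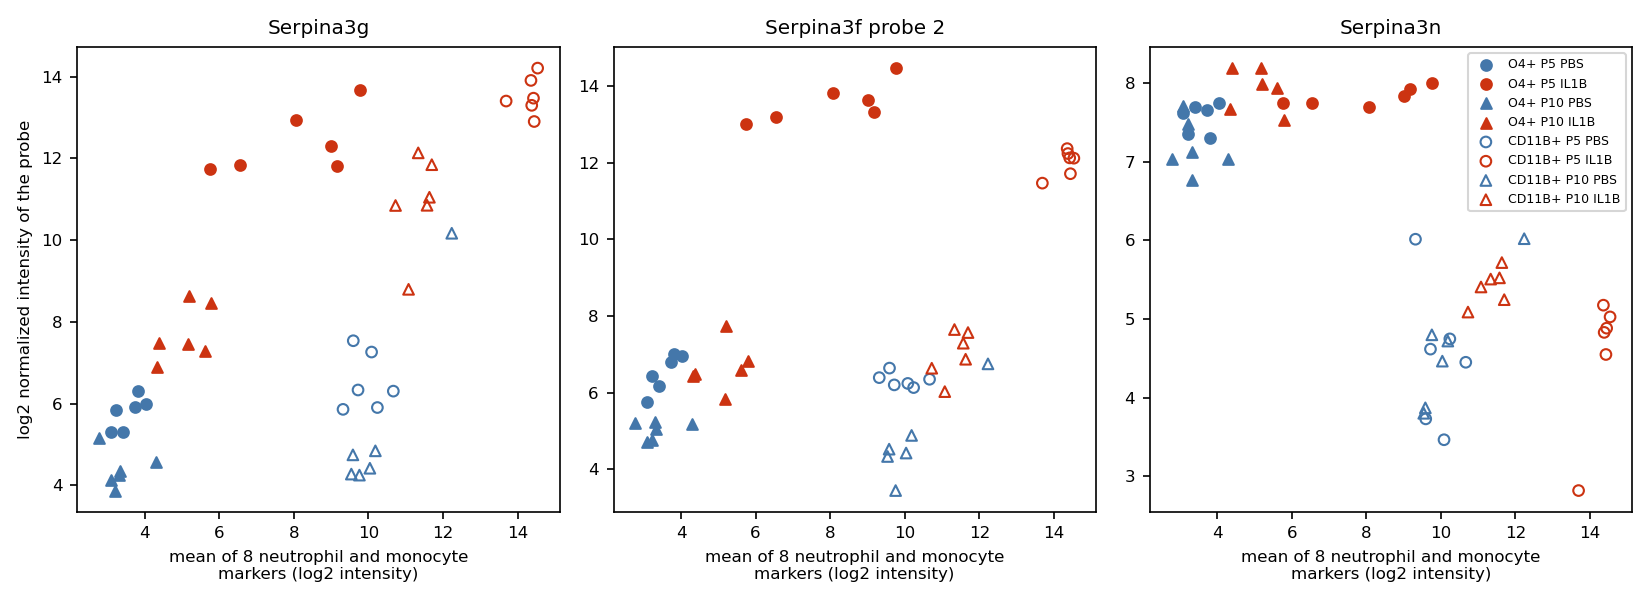
Log2 normalized intensity of Serpina3g, Serpina3f probe 2 and Serpina3n (y axes, 1 panel each) against the mean of 8 neutrophil and monocyte markers (log2, x axis), 1 point for each of the 48 arrays, by group. Serpina3g rises along the axis within each cell type, and CD11B+ P10 PBS replicate 6 lies at 12.23 on the x axis and 10.17 for Serpina3g. The points include the P5 step between treatments by which the genes were picked.

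The genes whose levels followed the members most closely were taken over 21835 probes well above background on at least 12 arrays, by Pearson's r over the 48 arrays. For Serpina3g they were Iigp1 (0.960), Gbp4 (0.947), Gbp6 (0.943), Cxcl9 (0.932) and Tgtp2 (0.927), which are genes known to be induced by interferon. For Serpina3f probe 2 they were Selp (0.911), Vcam1 (0.905), Steap4 (0.899), Tnfsf10 (0.894) and E030010A14Rik (0.880), of which Selp and Vcam1 are adhesion molecules. For Serpina3n they were Nfix (0.972), Trfr2 (0.967), Gpr123 (0.967), Arhgef26 (0.966) and Dlgap3 (0.965). The arrays share cell type and treatment, so these values order the genes and test nothing, and within the O4+ and the CD11B+ arrays Nfix was at 0.909 and 0.780 with Serpina3n.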

How the data were processed

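RNA of O4+ and CD11B+ cells was labeled with Cy3 and read on 1-color Agilent arrays. The authors deposited each array's scanner output, made with Agilent Feature Extraction (version not given in the sources used here), and its processed-signal intensity is background-corrected. The deposited matrix holds each spot's linear ratio to its array's median (largest log2 deviation 1.86e-05), not the quantile-normalized values the methods describe, and was an alternative. From the 48 arrays, 278 non-uniform spots were left out and none was saturated. Intensities were taken as log2, quantile-normalized, and repeat spots of 1 probe were averaged (55681 probes, 28685 with a gene accession).

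Groups come from the labels, 6 arrays each. Tests used limma 3.58.1 in R 4.3.3 with 2 groups a fit and Benjamini-Hochberg adjustment over all probes. Calls needed an adjusted p under 0.05 and over 1.5-fold between medians, and the interaction had no fold threshold. A probe well above background on no array of a group has only a bound there ("at least"), set on the lowest signal among probes well above background. The number of arrays limits precision. Labels give separate samples and the methods pooled brains, and p-values measure the spread between these samples only.

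The members and gene lists were chosen with earlier results of these data known. Named genes were all members, the other Serpina3 copies, up to 4 called genes of largest change in each list and comparison, and the 5 genes most like Serpina3g, Serpina3f probe 2 and Serpina3n (Pearson's r over 48 arrays). 1 gene of these lists is not reported here by name. On simulated data for O4+ P10 over 55638 probes, 98.5% of changes of 4 log2 units, 89.6% of 2 and 57.6% of 1 were called, and 0.0144% of unchanged probes. The alternatives tried were normexp (offset 50), scaling to the 75th percentile, the deposited matrix, a filter on dim probes, no fold threshold, all groups in 1 fit, the replicate number, slide or scan as a block, and leaving out each array. Slide and scan blocks without CD11B+ P10 PBS replicate 6 were added after seeing the data.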

Additional observations from a re-analysis of the deposited data

Results flagged for a closer look

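In a group of 6 arrays, a value whose gap to its nearest neighbor takes a large share of the group's range stands apart, and chance does this in about 1 of 20 groups. Of 64 probe and group pairs, 14 passed that limit, and the 6 given here are high values well above background, or low values where the other 5 arrays were well above it. Serpina3g in CD11B+ P10 PBS replicate 6 was 10.17, with the next array at 4.84, and Serpina3f probe 1 in the same array was 5.98, with the next at 2.78. Serpina3f probe 1 in CD11B+ P5 PBS replicate 3 was 5.72 with the next at 3.90. In CD11B+ P5 IL1B, replicate 3 was the low array for Serpina3i probe 2, at 3.14 with the next at 5.30, and for Serpina3n, at 2.82 with the next at 4.55. Serpina3i probe 2 in O4+ P10 PBS replicate 5 was 6.78 with the next at 2.03, although no other array of that group was bright for this probe.

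CD11B+ P10 PBS replicate 6 also had the highest mean of its group for neutrophil and monocyte markers (12.23 against 9.54 to 10.19) and for astrocyte markers (9.66 against 8.36 to 8.77). The same held for neuron markers (7.79 against 7.33 to 7.71) and hepatocyte markers (7.10 against 6.36 to 6.85). Its microglial mean was the lowest, at 16.716 against 16.725 to 16.851. The part of any of these in its Serpina3 values was not tested.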

How the results depend on the processing

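The P5 description kept its sign under the alternatives run. The median log2 fold over the 8 probes, 4.46 in O4+ and 4.26 in CD11B+ cells, was 1.73 and 1.66 with normexp, and ran from 4.36 to 4.58 and from 4.21 to 4.28 when an array was left out. Of the 4 calls in O4+ cells at P10, Serpina3n and Serpina3i probe 1 ended with all 8 groups in 1 fit, which left 2, and 4 to 5 probes were called when an array was left out. Of the CD11B+ P10 counts, slide as a block gave 0 calls, that block without PBS replicate 6 gave 1, and leaving out an array gave 1 to 5: 1 without PBS replicate 1, 2 or 3 or IL1B replicate 3 or 5, 2 without PBS replicate 4 and 5 without PBS replicate 6. Serpina3n there was -0.0159 with the slide block, against 0.80.

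Of PBS age in O4+ cells, 3 calls became 1 with normexp and 1 with all groups in 1 fit, and 3 to 5 when an array was left out. In CD11B+ cells 1 call became 0 with slide or scan as a random block, 2 with all groups in 1 fit, and 1 to 4 when an array was left out. Between cell types at P5, 1 call became 2 with 75th-percentile scaling, 2 with no fold threshold and, with the deposited matrix, 2 of which 1 was lower in O4+ cells, and 1 to 3 when an array was left out. At P10 it became 2 with all groups in 1 fit and 1 to 3 when an array was left out. Serpina3f probe 2, 0.20 higher in O4+ cells at P5 and not called, was -0.24 with the slide block and -0.0783 with the scan block.

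For the interaction at P10, 0 calls became 3 with 75th-percentile scaling, 3 with the deposited matrix, 1 with normexp, 1 with the replicate block, 2 with the filter on dim probes and 2 with all groups in 1 fit, and 0 to 3 when an array was left out. Serpina3n, at -0.07 and not called, was 0.0075 with 75th-percentile scaling, 0.30 with normexp, 0.55 with the slide block, 0.029 and 0.002 without O4+ P10 PBS replicate 6 or IL1B replicate 1, and 0.088 and 0.074 without CD11B+ P10 PBS replicate 2 or 3, and its lowest value was -0.36 without CD11B+ P10 PBS replicate 6. The cause of these changes was not tested.

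Replicate numbers were shared between groups, and by the study's text both cell types came from the same animals, but no source used here ties a number to an animal. Same-numbered arrays did not correlate over 0.1 in all 6 pairs of any comparison. Between cell types 5 of 6 pairs did at each age (lowest 0.055 at P5 and -0.016 at P10), and 5 and 4 of 6 arrays correlated best with their own number. With the replicate block 4 probes were called in O4+ cells and 3 in CD11B+ cells at P10, 3 and 1 for age, 1 and 1 between cell types, and 1 for the interaction, Serpina3i probe 1 (limma adjusted p = 0.0317). Levels near the lowest signal well above background, which ran from 2.88 to 4.51 over the arrays, carry no order.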
